A study of Bos taurus with 9 samples.

Results

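The SLC25 genes encode the mitochondrial carrier family, the proteins that move metabolites across the inner mitochondrial membrane. Members were taken as every gene whose gene ID carries a bovine RefSeq symbol made of SLC25A and a number, and 43 of the 17852 genes in the deposited table met this rule. Reads were assigned to them in 9 RNA-seq libraries of cow (Bos taurus) oocytes at metaphase II, the stage at which a mature egg waits for fertilisation. The libraries came from 3 samples exposed to microplastics and taurine together, 3 exposed to microplastics alone and 3 controls. The labels name the treatment only: the plastic, its dose, the exposure time, the animals and the number of oocytes in a sample are not stated in them. They do not tell whether libraries of the same group derive from different cows or cultures, and the p-values below therefore reflect only how these samples vary, possibly for technical reasons. Taurine was given only together with microplastics, and no group received taurine alone.

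Mitochondrial carriers share a fold of paired membrane helices and are made in the cytosol, guided through the outer membrane by the TOM70 receptor and inserted by the TIM22 complex. ADP/ATP carriers exchange matrix ATP for cytosolic ADP, the aspartate/glutamate and oxoglutarate carriers run the malate-aspartate shuttle that brings reducing power into the matrix, and other members carry phosphate, coenzymes, amino acids, acylcarnitines, glutathione and iron. Maternal mitochondria and their carriers serve the oocyte through fertilisation and the first cleavages, and SLC25A31 is an ADP/ATP carrier best known from germ cells in mammals. SLC25A17 is an exception in place, since it lies in the peroxisomal membrane.

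Each library held between 21168652 and 22743580 estimated reads. Tests were made with edgeR's quasi-likelihood test on counts summed per gene, with trimmed mean of M-values (TMM) scaling and Benjamini-Hochberg adjustment over all 13206 genes tested, and calls were made at an adjusted p under 0.05. Levels of one gene across libraries are given below as TMM-scaled counts per 1000000 reads (CPM), and levels of different genes are compared as the deposited transcripts per 1000000 (TPM), which correct for transcript length. Microplastics + taurine library 3 correlated best with control library 2 (r = 0.977 across genes, against 0.962 at best within its group), and control library 3 correlated best with microplastics + taurine library 1 (r = 0.976, against 0.964 within its group). Control library 2 and microplastics + taurine libraries 1 and 2 also correlated best with a library of the other of these groups, by a smaller margin (0.976 or 0.977, against 0.973 to 0.975 within their groups). The summed level of 14 oocyte markers was 81602 to 108092 CPM with microplastics + taurine, 38605 to 47179 CPM with microplastics and 90342 to 120036 CPM in control. BTG4 alone averaged 52885, 19791 and 59410 CPM in these groups, so the sums of the 14 markers rest largely on this gene. All 14 passed the filter: 2 were called higher and 7 lower with microplastics against control, where 9.68% of all genes tested were higher and 14.7% lower, and 5 higher and 2 lower with taurine added to microplastics, where the shares of all genes were 10.1% and 4.13%. For 15 cumulus and granulosa markers found in the table the sums were 516 to 566, 418 to 518.1 and 511 to 611 CPM in the same order of groups, with 0 called higher and 5 lower of 12 tested with microplastics against control and 4 higher and 0 lower with taurine added. Leukocyte markers summed to under 9 CPM in every library, and erythroid markers to 17.3 to 23.9 CPM with microplastics + taurine, 10.6 to 17.7 CPM with microplastics and 31.1 to 67.2 CPM in control. Endothelial and stromal markers summed to at most 65.9 CPM with microplastics + taurine, 54.9 CPM with microplastics and 49 CPM in control. The part of these markers in the results below was not tested, and in bulk RNA fewer cells of a type and less RNA per cell cannot be told apart.

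Of the 43 members, 38 passed the filter on low counts. The other 5 were SLC25A25 with 0 to 6 reads per library, SLC25A34 and SLC25A37 with 0 to 9, SLC25A41 with 2 to 8 and SLC25A45 with 0 to 2. SLC25A37 is mitoferrin-1, the iron importer of developing red cells, and SLC25A25 and SLC25A41 are ATP-Mg/phosphate carriers. No gene of the deposited table matched the symbols SLC25A2, SLC25A47 and SLC25A48.

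A few carriers held a large share of the family's transcripts. With microplastics + taurine, SLC25A5, an ADP/ATP carrier, stood at 289.8 ± 80.8 TPM (SD, n = 3, as for all means here), SLC25A31 at 211 ± 28.8 TPM, SLC25A17 at 166 ± 38.5 TPM and SLC25A16, a carrier linked to coenzyme A, at 112.5 ± 18.8 TPM. These 4 genes made up 55.5% of the summed TPM of the 43 members. With microplastics alone the first 4 were SLC25A16 at 182 ± 25.1 TPM, SLC25A5 at 152 ± 3.42 TPM, SLC25A17 at 145 ± 10.3 TPM and SLC25A15, the ornithine carrier of the urea cycle, at 103.5 ± 16.2 TPM, together 42.1%. SLC25A31 was 5th there, at 95.3 ± 4.42 TPM, which is within the SD of SLC25A15. In control the order was again SLC25A5 at 280.2 ± 42.0 TPM, SLC25A31 at 232 ± 30.0 TPM, SLC25A17 at 182 ± 11.1 TPM and SLC25A16 at 114 ± 8.86 TPM, together 58%. The SDs of SLC25A5 and SLC25A31 overlap in control, so their order is not separated, while SLC25A17 and SLC25A16 lie apart by more than their SDs.

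With microplastics + taurine, 22 members were at 10 TPM or more, 8 between 1 and 10 TPM and 13 under 1 TPM. The matching numbers were 26, 8 and 9 with microplastics and 21, 8 and 14 in control. SLC25A3, the phosphate carrier that supplies ATP synthase, was among the low members, at 1.35 ± 1.86 TPM with microplastics + taurine, 0.78 ± 0.535 TPM with microplastics and 2.15 ± 0.945 TPM in control. These values are for the single SLC25A3 transcript listed in the table, and whether reads of other transcripts of this gene were counted elsewhere is not known, so they may understate the gene. Summed over all 43 members the family stood at 1400 ± 182 TPM with microplastics + taurine, 1390 ± 131 TPM with microplastics and 1390 ± 50.7 TPM in control, which differ by less than the spread between replicates. On the TMM-scaled scale the same sums were 2060 ± 325, 1440 ± 121 and 2170 ± 112 CPM. TPM fixes the total of each library, whereas TMM factors were 0.841 to 0.958 for the microplastics + taurine libraries, 1.214 to 1.253 for the microplastics libraries and 0.835 to 0.972 for the control libraries, so the 2 scales place the microplastics group differently. The 0.841 was microplastics + taurine library 3 and the 0.972 was control library 3, which correlated best with a library of the other group.

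**Figure D1:**
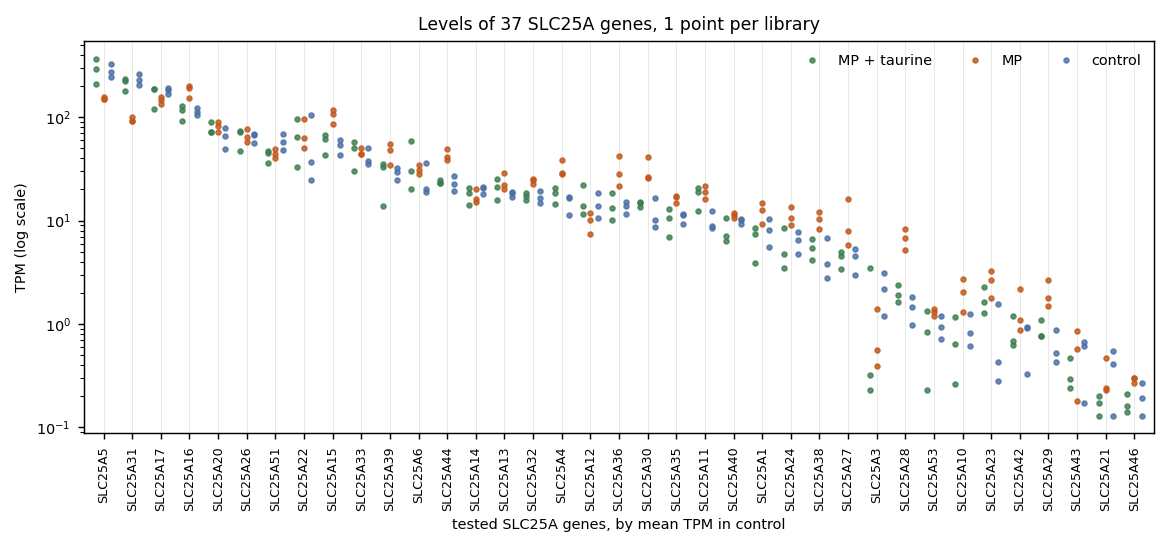
Level of 37 tested SLC25A genes in TPM (vertical log axis), 1 point per library, for microplastics + taurine (MP + taurine), microplastics (MP) and control, ordered by the mean in control. SLC25A5 and SLC25A31 lead in the MP + taurine and control libraries, and their MP points lie below the other 6 libraries.

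With microplastics against control, 9 of the 38 tested members were called, 3 higher and 6 lower. This is 23.7% of the members, against 24.3% of all genes tested, so the family was called about as often as genes in general. By direction 7.89% of the members were higher, against 9.68% of all genes, and 15.8% were lower, against 14.7% of all genes. The median log2 fold change was -0.02 over the members and 0.04 over all genes. The 6 that fell were the ADP/ATP carriers SLC25A31 and SLC25A5, the NAD+ carrier SLC25A51, the peroxisomal carrier SLC25A17, the aspartate/glutamate carrier SLC25A12 and the uncoupling protein relative SLC25A14. The 3 that rose were SLC25A28, which is the iron importer mitoferrin-2, the basic amino acid carrier SLC25A29 and SLC25A30, another uncoupling protein relative. The count of rises was 1 without control library 1, control library 2 or microplastics library 3, and 5 without control library 3.

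When taurine was given with microplastics, 6 of 38 members (15.8%) were called against microplastics alone, 4 higher and 2 lower, where 14.2% of all genes were called. The share higher was 10.5% of members and 10.1% of all genes, and the share lower was 5.26% of members and 4.13% of all genes, with medians of -0.14 and -0.02. SLC25A5, SLC25A12, SLC25A17 and SLC25A31 rose, and SLC25A28 was among those that fell. The count of rises was 2 without microplastics library 1 or 2 and 7 without microplastics + taurine library 1. The count of falls was 0 without microplastics library 2 and 1 without microplastics library 1, microplastics library 3 or microplastics + taurine library 2 or 3. This comparison and the one above share the 3 microplastics libraries, so opposite directions for one gene are not 2 independent results.

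With microplastics + taurine against control, edgeR called 0 of 38 members, where 0.00757% of all genes (1 gene) was called. Of the 38 members 4 had an unadjusted p under 0.05 by edgeR, as did 753 of all 13206 genes tested. The 4 included SLC25A51, SLC25A11 and SLC25A23. Limma-voom and the DESeq2 Wald test also called 0 members. Log2 fold changes ran from -1.24 to 1.17, with a median of -0.05 over members and 0.02 over all genes. Without microplastics + taurine library 3 and control library 3, the libraries furthest from their own groups, 783 of 13426 genes tested were called in this comparison. Among them were 3 of the 38 members. These members were SLC25A22 (log2 fold change 1.16, adjusted p = 0.0394), SLC25A23 (2.21, adjusted p = 0.0196) and SLC25A3 (-3.45, adjusted p = 0.0137), all by edgeR's quasi-likelihood test. These libraries were chosen for standing apart from their groups, so the larger count is no independent evidence.

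**Figure D2:**
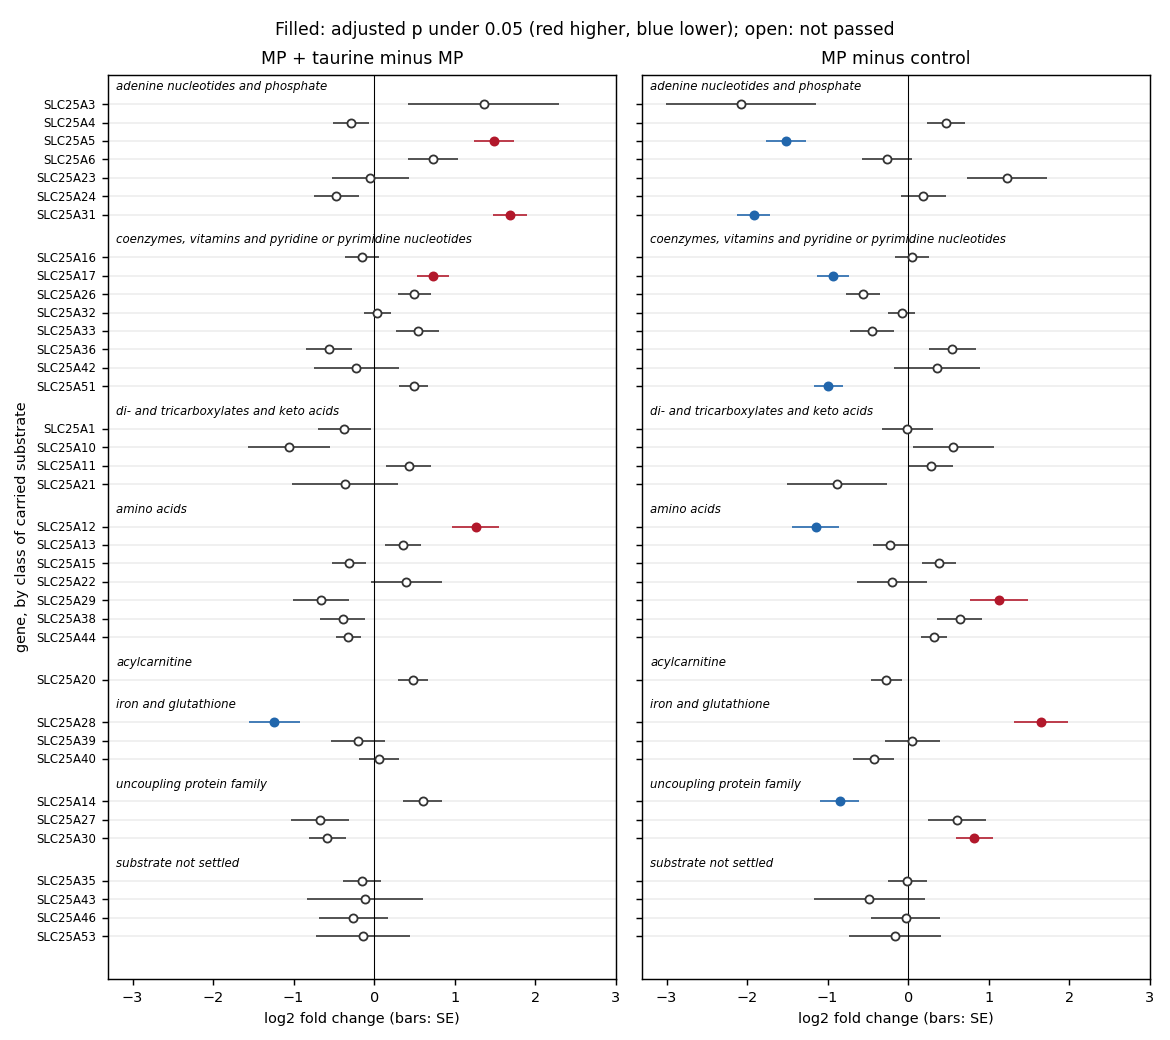
Log2 fold change with its standard error for 37 tested SLC25A genes, grouped by the class of substrate carried, for MP + taurine minus MP (left) and MP minus control (right). Filled points passed an adjusted p of 0.05; in the adenine nucleotide class only SLC25A5 and SLC25A31 are filled, on the positive side at left and on the negative side at right.

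The adenine nucleotide and phosphate class held 9 members, of which 7 were tested. With microplastics against control 0 were called higher and 2 lower (28.6%), where 9.68% of all genes tested were higher and 14.7% lower. The class median was -0.26. With taurine added 2 were called higher (28.6%) and 0 lower, with a median of 0.73. The shares of all genes there were 10.1% and 4.13%. Counts this small cannot set the class apart from genes in general.

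SLC25A31 had the largest fall of any called member. It stood at 256, 325 and 377 CPM in the microplastics + taurine libraries, at 104, 101 and 92.7 CPM in the microplastics libraries and at 456, 384 and 282.5 CPM in control. Every microplastics library was lower than the other 6, while microplastics + taurine and control overlapped. Its log2 fold change was -1.92 ± 0.21 (SE) for microplastics against control, 3.77-fold lower (edgeR adjusted p = 0.000108), and 1.69 ± 0.21 for taurine added to microplastics, 3.22-fold higher (edgeR adjusted p = 0.000328). Against control the microplastics + taurine group differed by -0.23 ± 0.20 (edgeR adjusted p = 0.870).

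SLC25A5 is the ADP/ATP carrier of dividing cells. It had 180.5, 258 and 360.5 CPM with microplastics + taurine, 92.4, 98.5 and 93.5 CPM with microplastics and 284, 326 and 203 CPM in control. The 3 microplastics libraries lay close together and below all others. The log2 fold change was -1.52 ± 0.25 for microplastics against control (edgeR adjusted p = 0.00135) and 1.49 ± 0.25 for taurine added (edgeR adjusted p = 0.00223). Both of these carriers kept their calls in these 2 comparisons under all 19 alternatives tried, each left-out library included.

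The remaining ADP/ATP carriers were not called at the main settings. SLC25A4, the heart and muscle form, had 18.6, 17.3 and 14.9 CPM with microplastics + taurine, 18.8, 19.4 and 24.2 CPM with microplastics and 18.5, 11.9 and 14.6 CPM in control, a log2 difference of 0.47 ± 0.23 for microplastics against control (edgeR adjusted p = 0.147). SLC25A4 was called higher in that comparison with the length trend removed (0.68, edgeR adjusted p = 0.0445) and with library size in place of TMM (0.95, edgeR adjusted p = 0.0118), and lower with taurine added with library size (-0.72, edgeR adjusted p = 0.0499). SLC25A6 had 62.2, 32.6 and 23.9 CPM with microplastics + taurine, 23.5, 22.5 and 25.5 CPM with microplastics and 24.2, 24.7 and 36.6 CPM in control. Microplastics + taurine library 1 was thus above the other 8. Its log2 difference for taurine added was 0.73 ± 0.31 (edgeR adjusted p = 0.141), and it was called without microplastics + taurine library 3, at 0.99 (edgeR adjusted p = 0.0430), and without both that library and control library 3, at 0.98 (edgeR adjusted p = 0.0182).

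As a description chosen after the values were seen, the 4 ADP/ATP carriers together made up 39.4 ± 1.27% of the family's TPM with microplastics + taurine, 22.5 ± 1.67% with microplastics and 39.7 ± 4.38% in control. Within the 4, SLC25A31 held 38 ± 1.46%, 30.7 ± 1.86% and 42.0 ± 3.56% in these groups and SLC25A4 held 3.33 ± 1.06%, 10.2 ± 1.46% and 2.74 ± 0.739%. SLC25A5 held 51.6 ± 6.71% with microplastics + taurine, 48.9 ± 1.14% with microplastics and 50.6 ± 4.19% in control, so its share moved by less than the spread between replicates. The TPM of SLC25A31 was 12.2 ± 3.66, 3.06 ± 0.567 and 16.0 ± 4.13 times that of SLC25A4 in these groups, with no overlap between microplastics and either other group. These genes are close paralogs, and how reads common to them were assigned is not given, so the split among them is uncertain.

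**Figure D3:**
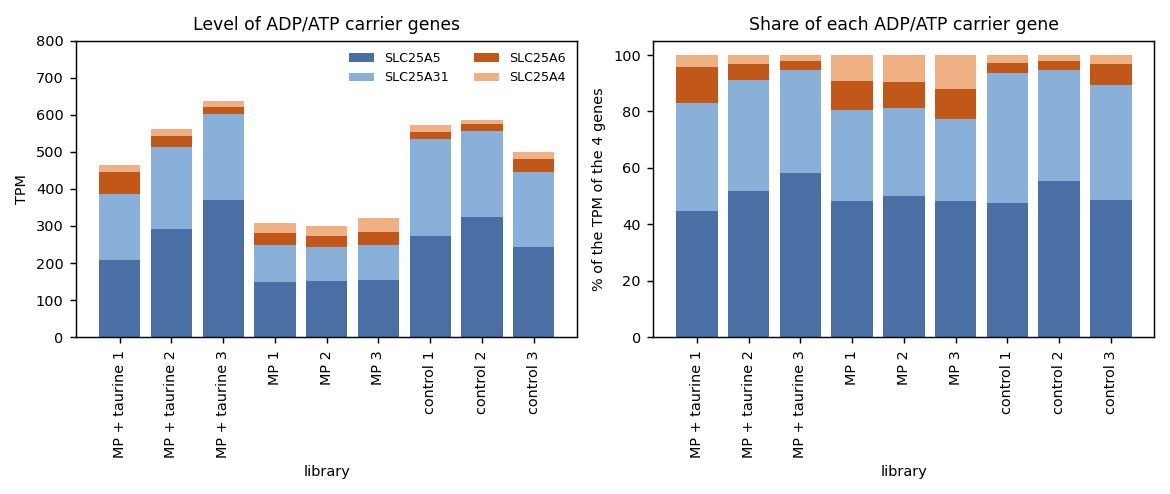
Summed TPM of the 4 ADP/ATP carrier genes in each library (left, stacked bars) and the share of each gene in that sum in % (right), for MP + taurine, MP and control. The sum was 301 to 321 TPM in the MP libraries, against 465 to 636 TPM with MP + taurine and 499 to 587 TPM in control.

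The other tested genes of this class were SLC25A3 and the calcium-regulated ATP-Mg/phosphate carriers SLC25A23 and SLC25A24. SLC25A3 had 0.238, 0.338 and 4.10 CPM with microplastics + taurine, 0.415, 1.09 and 0.284 CPM with microplastics and 2.72, 3.70 and 1.19 CPM in control. Microplastics + taurine library 3 was the highest of the 9 while the other two of its group were among the lowest, and the difference of -2.08 ± 0.93 for microplastics against control was not called (edgeR adjusted p = 0.125). It was called without microplastics + taurine library 3 (-2.08, edgeR adjusted p = 0.0171), with only these groups fitted (-2.08, edgeR adjusted p = 0.0221) and without that library and control library 3 (-2.41, edgeR adjusted p = 0.00356). SLC25A23 differed by 1.23 ± 0.50 in that comparison (edgeR adjusted p = 0.0929), and without control library 3 it was called, at 2.14 (edgeR adjusted p = 0.00565). In the same comparison SLC25A24 differed by 0.19 ± 0.28 (edgeR adjusted p = 0.662).

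The next class has 9 members, which carry coenzymes, vitamins or pyridine and pyrimidine nucleotides, and all of them were tested. Of these 0 rose and 2 fell (22.2%) with microplastics against control, where 9.68% of all genes tested were higher and 14.7% lower. SLC25A17 rose when taurine was added, where 10.1% of all genes were higher.

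SLC25A17 carries coenzyme A, FAD and NAD+ in peroxisomes and had the highest level in this class. It stood at 166, 264 and 289 CPM with microplastics + taurine, 133, 151 and 148 CPM with microplastics and 279.9, 291 and 253 CPM in control. On the TMM scale the microplastics libraries lay below the others, by a small margin for microplastics + taurine library 1. In TPM that library, at 121, was below the microplastics libraries, at 135, 146 and 155. The log2 fold change of SLC25A17 was -0.93 ± 0.20 for microplastics against control (edgeR adjusted p = 0.00623) and 0.73 ± 0.20 for taurine added (edgeR adjusted p = 0.0290). The second call was lost without microplastics library 1 (0.66), 2 (0.76) or 3 (0.74) and without microplastics + taurine library 2 (0.66) or 3 (0.58). Library size in place of TMM also ended it (0.29, edgeR adjusted p = 0.235).

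SLC25A51 imports NAD+ into the matrix. It stood at 131, 107.5 and 156 CPM with microplastics + taurine, 92.3, 88.8 and 100.3 CPM with microplastics and 204, 164 and 192 CPM in control. On the TMM scale the 3 groups did not overlap, with microplastics + taurine between the other groups. In TPM the microplastics libraries (44.1, 40.4 and 49.4) overlapped both microplastics + taurine (45.2, 36.3 and 47.6) and control (58.1, 48.55 and 68.1). The fall with microplastics against control was -0.99 ± 0.18 on the log2 scale (edgeR adjusted p = 0.00223) and was called under all 19 alternatives. With taurine added the difference was 0.49 ± 0.18 (edgeR adjusted p = 0.0845), and against control microplastics + taurine differed by -0.50 ± 0.18 (edgeR adjusted p = 0.855). Library size in place of TMM gave 0.05 for taurine added (edgeR adjusted p = 0.854).

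A further 6 members of the class were not called by edgeR at the main settings in any of the 3 comparisons. Microplastics against control differed by -0.56 ± 0.21 for SLC25A26, the S-adenosylmethionine carrier (edgeR adjusted p = 0.0741), which was called by the DESeq2 Wald test (-0.60, adjusted p = 0.0468) and by edgeR without microplastics + taurine library 1 (-0.57, adjusted p = 0.0267). Without that library it was also called higher with taurine added (0.70, edgeR adjusted p = 0.0234), as was SLC25A33 (0.80, edgeR adjusted p = 0.0327). The difference was -0.45 ± 0.27 for SLC25A33 and 0.55 ± 0.29 for SLC25A36, both pyrimidine nucleotide carriers, with edgeR adjusted p-values of 0.232 and 0.189. SLC25A32, which carries folate and FAD, had one of the narrowest ranges, 35.9 to 44.3 CPM with microplastics + taurine, 36.7 to 42.1 CPM with microplastics and 38.3 to 44.6 CPM in control. SLC25A16 differed by 0.05 ± 0.21 in microplastics against control (edgeR adjusted p = 0.872) although it ranked first by TPM in that group, and the coenzyme A carrier SLC25A42 by 0.36 ± 0.53 (edgeR adjusted p = 0.650).

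**Figure D4:**
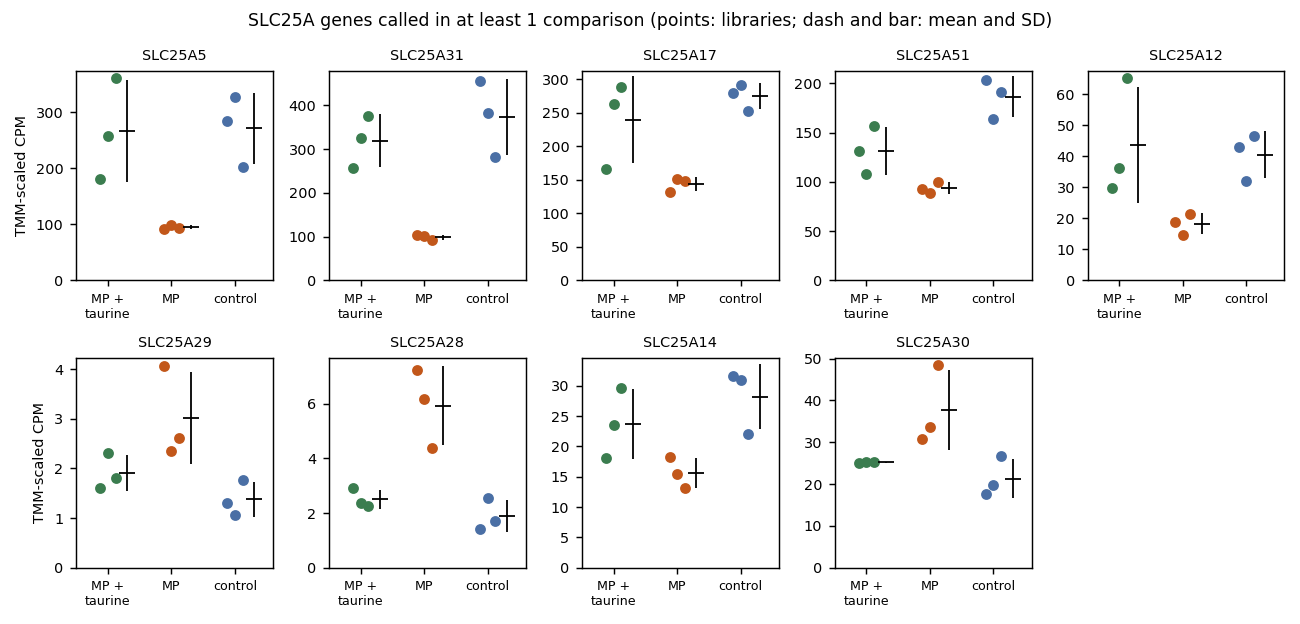
TMM-scaled CPM of 9 SLC25A genes called in at least 1 comparison, 1 point per library with the group mean and SD beside it, for MP + taurine, MP and control. The 3 MP libraries lie below the 3 control libraries for SLC25A5, SLC25A31, SLC25A17, SLC25A51, SLC25A12 and SLC25A14 and above them for SLC25A28, SLC25A29 and SLC25A30.

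The 7 members that carry amino acids were all tested. With microplastics against control 1 rose and 1 fell, and with taurine added 1 rose and 0 fell. Shares of all genes were 9.68% higher and 14.7% lower in the first comparison, and 10.1% and 4.13% in the second.

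SLC25A12 exchanges aspartate for glutamate and is one of the carriers of the malate-aspartate shuttle. It had 29.8, 36.1 and 65.1 CPM with microplastics + taurine, 18.8, 14.6 and 21.3 CPM with microplastics and 43.0, 32.0 and 46.6 CPM in control. On the TMM scale each microplastics library was below the other 6. In TPM microplastics library 3, at 11.8, was above microplastics + taurine library 1 (11.5) and control library 2 (10.7). The log2 fold change was -1.15 ± 0.29 for microplastics against control (edgeR adjusted p = 0.0135), a call lost without microplastics library 2 (-1.0). With taurine added it was 1.26 ± 0.29 (edgeR adjusted p = 0.0130), lost without microplastics library 1 (1.26) or 2 (1.11).

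Its paralog SLC25A13, or citrin, carries out the same exchange and was not called. It had 41.8, 56.7 and 75.8 CPM with microplastics + taurine, 38.5, 44.4 and 53.0 CPM with microplastics and 53.2, 57.3 and 47.5 CPM in control, so all 3 groups overlapped. The log2 difference was -0.22 ± 0.22 for microplastics against control (edgeR adjusted p = 0.502). The TPM of SLC25A12 was 0.751 ± 0.115 times that of SLC25A13 with microplastics + taurine, 0.414 ± 0.0811 times with microplastics and 0.798 ± 0.217 times in control, a description chosen after the values were seen.

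SLC25A29, which carries arginine and lysine, had 1.62, 2.32 and 1.81 CPM with microplastics + taurine, 4.08, 2.36 and 2.62 CPM with microplastics and 1.31, 1.06 and 1.76 CPM in control. The microplastics libraries were the highest, and the lowest of them was nearly level with microplastics + taurine library 2. The log2 fold change for microplastics against control was 1.13 ± 0.36 (edgeR adjusted p = 0.0400), and for taurine added it was -0.66 ± 0.35 (edgeR adjusted p = 0.241). The call was lost without control library 1 (1.09) or 2 (0.97), without microplastics library 1 (0.87), 2 (1.29) or 3 (1.23) and without microplastics + taurine library 2 (1.12).

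SLC25A22, a glutamate carrier, had the highest mean TPM in control among the amino acid carriers, which rests on control library 3. It stood at 24.5 and 36.7 TPM in control libraries 1 and 2, where SLC25A15 was higher at 42.9 and 53.9 TPM, and at 104.5 TPM in control library 3. It had 196, 135 and 77.4 CPM with microplastics + taurine, 74.7, 97.3 and 138.5 CPM with microplastics and 60.8, 87.5 and 208 CPM in control. Differences were -0.20 ± 0.44 for microplastics against control (edgeR adjusted p = 0.772) and 0.40 ± 0.44 for taurine added (edgeR adjusted p = 0.588). Without control library 3 the first difference was 0.50, on the other side of 0. The branched-chain amino acid carrier SLC25A44 varied less within groups, at 74.0 to 83.0 CPM with microplastics + taurine, 87.5 to 109 CPM with microplastics and 73.6 to 81.6 CPM in control. The microplastics libraries were the highest. Its difference of 0.32 ± 0.16 for microplastics against control was not called (edgeR adjusted p = 0.157). With library size in place of TMM it was called, at 0.79 (edgeR adjusted p = 0.00492), and at -0.76 for taurine added (edgeR adjusted p = 0.00994). SLC25A15 differed by 0.38 ± 0.21 (edgeR adjusted p = 0.211) and SLC25A38, which carries glycine for haem synthesis, by 0.64 ± 0.28 (edgeR adjusted p = 0.114), which was called without control library 3 (0.94, edgeR adjusted p = 0.0238).

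None of the 4 carriers of di- and tricarboxylates was called in any comparison by edgeR, and none had an unadjusted p under 0.05 in microplastics against control or in taurine added to microplastics. DESeq2 and limma-voom called none of them in these 2 comparisons either, and with library size in place of TMM scaling edgeR called SLC25A11 higher with microplastics than in control (0.78, adjusted p = 0.0372). SLC25A11, which exchanges oxoglutarate for malate in the malate-aspartate shuttle, was the most abundant of them. It had 14.2, 22.3 and 27.0 CPM with microplastics + taurine, 15.7, 13.9 and 17.4 CPM with microplastics and 17.2, 11.9 and 9.53 CPM in control. The 3 groups overlapped, and against control microplastics + taurine differed by 0.71 ± 0.28 (edgeR adjusted p = 0.855). The citrate carrier SLC25A1 differed by -0.01 ± 0.32 for microplastics against control (edgeR adjusted p = 0.990), the dicarboxylate carrier SLC25A10 by 0.56 ± 0.50 (edgeR adjusted p = 0.438) and the oxodicarboxylate carrier SLC25A21 by -0.88 ± 0.62 (edgeR adjusted p = 0.319).

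SLC25A20, the carnitine/acylcarnitine carrier of fatty acid oxidation, was the 5th most abundant member in control and with microplastics + taurine. It had 105, 108 and 151 CPM with microplastics + taurine, 87.4, 80.4 and 92.9 CPM with microplastics and 86.9, 113.5 and 113 CPM in control. On the TMM scale the microplastics + taurine libraries lay above the microplastics libraries, and the difference of 0.48 ± 0.19 was not called (edgeR adjusted p = 0.111). In TPM these groups overlapped, at 71.3, 71.9 and 90.4 with microplastics + taurine and 82.3, 72.1 and 90.2 with microplastics. Microplastics differed from control by -0.27 ± 0.19 (edgeR adjusted p = 0.317).

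Among the iron and glutathione carriers, 3 of 4 were tested. SLC25A28, mitoferrin-2, imports iron for haem and iron-sulphur clusters in most cell types. It had 2.90, 2.37 and 2.24 CPM with microplastics + taurine, 7.24, 6.16 and 4.39 CPM with microplastics and 1.42, 2.54 and 1.72 CPM in control. All 3 microplastics libraries were above the other 6. It was 3.13-fold higher with microplastics than in control, a log2 fold change of 1.65 ± 0.33 (edgeR adjusted p = 0.00427) that was called under all 19 alternatives. With taurine added the log2 fold change was -1.24 ± 0.32 (edgeR adjusted p = 0.0238), a call lost without microplastics library 1 (-1.09) or 2 (-1.23) and without microplastics + taurine library 2 (-1.20) or 3 (-1.17).

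The glutathione carrier SLC25A39 was not called. It had 17.4, 42.3 and 49.6 CPM with microplastics + taurine, 31.4, 52.4 and 41.8 CPM with microplastics and 44.3, 47.2 and 29.7 CPM in control, and all 3 groups overlapped. Its difference was 0.05 ± 0.34 for microplastics against control (edgeR adjusted p = 0.929) and -0.20 ± 0.34 for taurine added (edgeR adjusted p = 0.736). SLC25A40, its paralog, differed by -0.43 ± 0.25 for microplastics against control (edgeR adjusted p = 0.226).

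The 3 members SLC25A14, SLC25A27 and SLC25A30 belong to the uncoupling protein branch of the family, and their transported substrates are less settled. SLC25A14 and SLC25A30 are close relatives in this branch that moved in opposite directions with microplastics against control.

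SLC25A14 had 18.0, 23.6 and 29.6 CPM with microplastics + taurine, 18.2, 15.4 and 13.2 CPM with microplastics and 31.6, 30.9 and 22.0 CPM in control. On the TMM scale the microplastics libraries were below control and overlapped microplastics + taurine. In TPM microplastics library 1, at 20.0, was above control library 3, at 18.0. The log2 fold change was -0.85 ± 0.24 for microplastics against control (edgeR adjusted p = 0.0247) and 0.60 ± 0.24 for taurine added (edgeR adjusted p = 0.119). The first call was lost without control library 1 (-0.76) or 2 (-0.78) and without microplastics library 2 (-0.83) or 3 (-0.73). The taurine difference was called without microplastics + taurine library 1 (0.77, edgeR adjusted p = 0.0492).

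SLC25A30 had 25.1, 25.2 and 25.3 CPM with microplastics + taurine, 30.8, 33.6 and 48.6 CPM with microplastics and 17.5, 19.8 and 26.6 CPM in control. The microplastics libraries were the highest of the 9. It was higher with microplastics than in control by 0.82 ± 0.23 on the log2 scale (edgeR adjusted p = 0.0221), and with taurine added the difference was -0.58 ± 0.23 (edgeR adjusted p = 0.113). The first call was lost without control library 1 (0.70) or 2 (0.77) or without microplastics library 3 (0.61). The TPM of SLC25A14 was 1.24 ± 0.297 times that of SLC25A30 with microplastics + taurine, 0.584 ± 0.212 times with microplastics and 1.85 ± 0.677 times in control, again a description chosen after the values were seen. SLC25A27, the third of the branch, differed by 0.61 ± 0.36 for microplastics against control (edgeR adjusted p = 0.226).

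The 4 tested members whose substrate is not settled were not called by edgeR in any comparison, and none had an unadjusted p under 0.05. SLC25A35 was the most abundant of them, at 12.6, 10.7 and 7.72 CPM with microplastics + taurine, 11.9, 11.0 and 11.7 CPM with microplastics and 13.6, 10.5 and 10.7 CPM in control. The groups overlapped, and the difference for microplastics against control was -0.01 ± 0.24 (edgeR adjusted p = 0.984). SLC25A46, a protein of the outer membrane that bears on mitochondrial shape, stood at 0.570 to 0.985 CPM with microplastics + taurine, 0.830 to 0.942 CPM with microplastics and 0.654 to 1.10 CPM in control, a level at which only large changes could be detected. The log2 differences of the 4 ran from -0.48 to -0.01 for microplastics against control and from -0.26 to -0.11 for taurine added.

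Across all tested genes the change followed transcript length. From the shortest to the longest of 5 length classes, the median log2 fold change for microplastics against control was -0.35, -0.06, 0.09, 0.19 and 0.27 over all genes, and for taurine added it was 0.27, 0.10, 0.02, -0.15 and -0.26. A length was available for 37 of the 38 tested members, from 896 to 4519 nt, and member medians in the same classes were 0.02, -0.13, 0.56, -0.22 and -0.03 for microplastics against control, over 6, 16, 9, 5 and 1 members. SLC25A5, at 928 nt, lies in the shortest class and changed by -1.52, where the class median was -0.35. SLC25A12, at 2774 nt, and SLC25A51, at 3124 nt, fell in a class whose median was 0.19. With the length trend removed, SLC25A4 (0.68, edgeR adjusted p = 0.0445) and SLC25A26 (-0.66, edgeR adjusted p = 0.0489) gained calls for microplastics against control and SLC25A51 (0.66, edgeR adjusted p = 0.0363) gained one for taurine added. SLC25A29 was no longer called for microplastics against control (1.04, edgeR adjusted p = 0.0518). Nor was SLC25A17 for taurine added (0.63, edgeR adjusted p = 0.0517), and the part of length in these results was not otherwise tested.

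**Figure D5:**
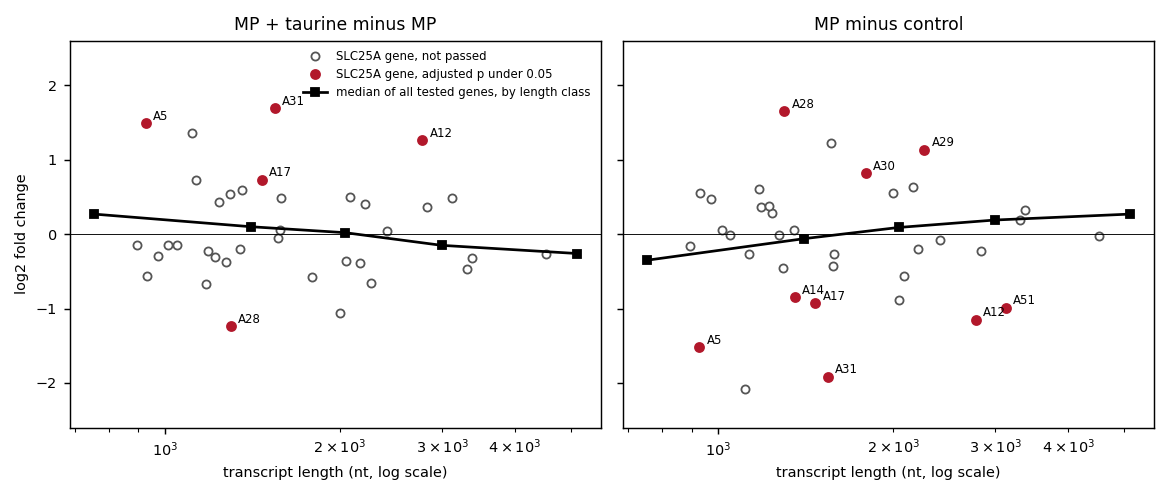
Log2 fold change of the tested SLC25A genes against transcript length in nt (log axis), for MP + taurine minus MP (left) and MP minus control (right); filled points passed an adjusted p of 0.05, and squares join the medians of all tested genes in 5 length classes. The black line falls from 0.27 to -0.26 at left and climbs from -0.35 to 0.27 at right, and SLC25A12 and SLC25A51 lie below it at right.

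The split between rises and falls depended on the scaling. With library size in place of TMM factors the median of all genes for microplastics against control was 0.52 rather than 0.04, and 82.0% of the calls were higher rather than 39.8%. Members then counted 12 higher and 3 lower. The calls gained were SLC25A4, SLC25A11, SLC25A15, SLC25A16, SLC25A23, SLC25A27, SLC25A36, SLC25A38 and SLC25A44, all higher. The falls of SLC25A31 (-1.42), SLC25A5 (-1.02) and SLC25A51 (-0.51) were still called, and those of SLC25A17 (-0.45), SLC25A12 (-0.68) and SLC25A14 (-0.35) were not. For taurine added, the median of all genes was -0.45 rather than -0.02, 19.5% of the calls were higher rather than 71.0%, and members counted 2 higher, SLC25A5 and SLC25A31, and 8 lower.

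Genes that act with the carriers were counted from lists of related function. Of 16 genes of the carrier import route through TOM70 and TIM22, 3 were called higher and 3 lower with microplastics against control, and 3 higher and 3 lower with taurine added, with medians of 0.10 and -0.02. For scale, 9.68% of all genes tested were called higher and 14.7% lower in the first comparison, and 10.1% and 4.13% in the second. AGK, known in human cells as a subunit of the TIM22 complex that inserts carriers, averaged 477 ± 93.7 CPM with microplastics + taurine, 183 ± 22.4 CPM with microplastics and 489 ± 125 CPM in control. Its log2 fold change was -1.42 ± 0.21 for microplastics against control (edgeR adjusted p = 0.000813) and 1.38 ± 0.21 for taurine added (edgeR adjusted p = 0.0014). TIMM8A and TIMM9, small chaperones of the space between the membranes, fell by 1.16 and 1.14 with microplastics against control (edgeR adjusted p = 0.00118 and 0.00148) and rose by 0.95 and 0.98 with taurine added (edgeR adjusted p = 0.00533 and 0.00512). The cytosolic chaperone HSPA8 rose by 0.90 with microplastics against control (edgeR adjusted p = 0.00185) and fell by 0.57 with taurine added (edgeR adjusted p = 0.0302), a call lost without microplastics library 1 (-0.64), 2 (-0.52) or 3 (-0.59) or microplastics + taurine library 2 (-0.46).

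Set beside the same shares of all genes, of 17 other transporters of the inner membrane 1 was higher and 3 lower with microplastics against control, and 2 were higher and 1 lower with taurine added. Of 11 enzymes of the shuttles that carriers serve, 1 was higher and 1 lower in each of these comparisons. Citrate synthase, CS, changed by -1.54 ± 0.29 with microplastics against control (edgeR adjusted p = 0.00327), which was called under all 19 alternatives, and by 1.20 ± 0.29 with taurine added (edgeR adjusted p = 0.0170), lost without microplastics library 2 (1.15) or 3 (0.93) or microplastics + taurine library 3 (0.98). Carnitine acetyltransferase, CRAT, changed by 1.43 ± 0.35 and -1.68 ± 0.35 (edgeR adjusted p = 0.0125 and 0.00848), the first lost without microplastics library 1 (1.25) or control library 1 (1.26). Among 8 enzymes that use carried substrates, 3 were higher and 0 lower with microplastics against control and 0 higher and 1 lower with taurine added. ATP5F1B, a catalytic subunit of ATP synthase, was higher by 1.18 ± 0.20 with microplastics than in control (edgeR adjusted p = 0.00163). With taurine added it differed by -0.42 ± 0.20 and was not called (edgeR adjusted p = 0.181). ATP5F1A, on the same list, differed by 0.02 ± 0.18 for microplastics against control (edgeR adjusted p = 0.958).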

How the data were processed

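RNA was extracted with TRIzol and libraries followed the sequencing provider's protocol, per the labels. Which aligner, counting program, genome build and annotation were used is not given in the sources used here. A deposited table lists 22590 transcripts with gene IDs. Its estimated counts, deposited by the authors without normalization per the file headers, include values that are not whole (20.9 to 24.0% per library). The authors also deposited FPKM and TPM, and a signal equal to rounded counts times 1 factor per library, which was not used here. FPKM served only to infer transcript length from the ratio of counts to FPKM, for transcripts with at least 20 reads.

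Estimated counts were summed per gene ID and rounded. Gene IDs were matched to the RefSeq gene table of assembly ARS-UCD2.0, used for names alone, and 16995 of 17852 genes (95.2%) had a symbol. All 9 libraries entered 1 edgeR 4.0.16 quasi-likelihood fit in R 4.3.3, with filterByExpr, TMM factors and robust dispersion, and contrasts between the 3 groups. The test was checked on simulated data in which few genes were changed, so the check does not bear on the choice of scaling. Alternatives, 19 in all, included DESeq2 1.42.0, limma-voom 3.58.1, other scalings and filters, a replicate block, removal of the length trend and each library left out. At this depth 3 counts correspond to 0.132 to 0.142 CPM before scaling, and this floor covers counting error only.

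Members called in any comparison, and the member with the highest control TPM in each substrate class, are given by library; other lists name at most 4 called genes by smallest adjusted p. A called member and a gene of another list are counted but not reported here by name or in figures. Members, classes and lists were chosen with earlier results of these data known, so none is independent evidence. Replicate numbers were not taken as pairs in the main fit. For replicates 1, 2 and 3, deviations from group means correlated at 0.05, 0.18 and 0.26 for microplastics and control. They correlated at 0.02, -0.10 and -0.15 for microplastics + taurine and microplastics, and at -0.16, -0.07 and -0.44 for microplastics + taurine and control.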

Additional observations from a re-analysis of the deposited data

How the results depend on the processing

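Under the 19 alternatives, 927 of 1056 results for the genes named kept their direction and side of the threshold, 100 lost and 8 gained a call, and 21 changed sign. In microplastics against control the members called numbered 3 higher and 6 lower. Library size in place of TMM gave 12 and 3 with 4880 genes in all, and leaving out microplastics + taurine 3 and control 3, called the libraries apart below, gave 5 and 8 with 5110 in all. In taurine added to microplastics, library size gave 2 higher, 8 lower and 3089 genes in all, and a filter at 5 CPM gave 1 lower member. For microplastics + taurine against control, all genes called numbered 0 with the 5 CPM filter, 0 with only these groups fitted, 5 by DESeq2 and 783 without microplastics + taurine 3 and control 3, where 2 members were higher and 1 lower; the cause was not tested. Leaving out each library in turn gave 1 to 5 members higher, 4 to 7 lower and 1715 to 4151 genes in all for microplastics against control, 2 to 7, 0 to 3 and 888 to 2146 for taurine added, and 0, 0 and 0 to 2 for microplastics + taurine against control. With the replicate number as a block, members called were 2 higher and 5 lower for microplastics against control (2417 genes in all), 3 and 2 for taurine added (1293 in all) and 0 for microplastics + taurine against control (0 genes in all). The block ended the calls of SLC25A29 (1.12, adjusted p = 0.0765) and SLC25A14 (-0.85, adjusted p = 0.0567) for microplastics against control and of SLC25A17 (0.71, adjusted p = 0.0524) for taurine added, and without a filter SLC25A29 was not called (1.13, adjusted p = 0.0529), all by edgeR.

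None of the 21 sign changes involved a called gene. For microplastics against control, SLC25A22 stood at 0.23 with library size, 0.50 without the libraries apart and -0.51 to 0.50 with each library left out. SLC25A20 stood at 0.21 with library size. SLC25A39 stood at -0.01 with the replicate block, -0.11 without the libraries apart and -0.13 to 0.24 with each library left out. SLC25A35 stood at 0.48 with library size, 0.04 with the 5 CPM filter, 0.00 with limma-voom, 0.00 with the block, 0.17 with the length trend removed and -0.08 to 0.12 with each library left out. For taurine added, library size gave -0.02 for SLC25A11 and -0.01 for SLC25A22, SLC25A35 stood at 0.01 without the libraries apart and -0.32 to 0.02 with each library left out, and SLC25A39 at -0.49 to 0.13. With 3 libraries a group, low members such as SLC25A43 and SLC25A3 had standard errors of 0.69 and 0.93 on the log2 scale for microplastics against control, so only large differences could pass. The labels name no batch.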

Other observations

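Family genes listed under other symbols and the pores of the outer membrane were not called by edgeR in any of the 3 comparisons. MTCH2, an insertase of the outer membrane, averaged 159 ± 57.6 CPM with microplastics + taurine, 122 ± 13.8 CPM with microplastics and 161 ± 30.9 CPM in control, a log2 difference of -0.40 ± 0.26 for microplastics against control (edgeR adjusted p = 0.268). UCP2 and UCP3, uncoupling proteins, averaged under 5 CPM in each group, and UCP1, the uncoupler of brown fat, had at most 1 read in a library. VDAC1, the main pore through which carrier substrates cross the outer membrane, averaged 449 ± 60.7 CPM with microplastics + taurine, 318.5 ± 42.6 CPM with microplastics and 412 ± 46.5 CPM in control, with a log2 difference of 0.50 ± 0.17 for taurine added (edgeR adjusted p = 0.0739) and -0.37 ± 0.17 for microplastics against control (edgeR adjusted p = 0.132).

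Of the 43 members, 40 had 1 transcript in the deposited table and 3 had more. For SLC25A1 the deposited estimated counts put 100.62 reads of microplastics library 1 and 191.41 reads of control library 1 on a second transcript, which had 0 in the other 7 libraries. For SLC25A46 a second transcript had 14.0 reads in microplastics + taurine library 2 and 10.28 in microplastics library 2, and 0 in the other 7. In microplastics + taurine library 2 the first SLC25A46 transcript had 0 reads. These values are assignments by the authors' counting program between transcripts of 1 gene, and sums per gene were used for every result above.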
